A study of Homo sapiens with 20 samples.

Results

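The Krüppel-like factor (KLF) genes *KLF2*, *KLF3*, *KLF4*, *KLF5*, *KLF6*, *KLF7*, *KLF9*, *KLF10*, *KLF11* and *KLF15* were examined in RNA-seq of 4 lung cancer cell lines with CRISPR-Cas9 knockout (KO) of *ADAR*. These are 10 of the 18 KLF genes among the 58233 gene identifiers counted, and they were selected on the response to *ADAR* KO in each line and on the dependence of that response on interferon-β (IFN-β) in A549. The KO effects and the IFN-β effects given here are therefore a description of the selected genes. The other 8 KLF genes are *KLF1*, *KLF8*, *KLF12*, *KLF13*, *KLF14*, *KLF16*, *KLF17* and *KLF18*.

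Gene expression was counted in 20 libraries of 10 conditions, with 2 libraries each. All cells were pools that carried a lentiviral vector with both Cas9 and an sgRNA. They had been selected with puromycin and/or blasticidin, as the paper gives it. The sgRNA targeted either *GFP*, as the control, or *ADAR*, which encodes the RNA-editing enzyme ADAR1. HCC366 (adenosquamous carcinoma), NCI-H1650 (adenocarcinoma) and NCI-H196 (variant small cell carcinoma) are lines that require ADAR1, and they were untreated. A549, an adenocarcinoma line that tolerates loss of ADAR1, received either IFN-β (10 ng/mL, 24 h) or vehicle with each of the targets. RNA of HCC366, NCI-H1650 and NCI-H196 was isolated days after transduction, while for A549 the paper gives only the length of treatment. Differences between those lines and A549 can therefore not be told apart from differences in handling. The 2 libraries of a condition carry different sgRNAs (sg1 and sg2), so every error and test below rests on the spread between sgRNAs and not on repeats of the experiment.

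KLF proteins bind GC-rich and CACCC-type promoter elements through a conserved carboxy-terminal block of zinc fingers, as do the related SP factors. Several of the genes are early-response genes. *KLF10* and *KLF11* were first described as transcripts induced by TGF-β, *KLF9* and *KLF15* are induced by glucocorticoids, *KLF2* and *KLF4* lie downstream of the ERK5 kinase and MEF2 factors, and *KLF6* responds to injury and stress. *KLF4* and *KLF5* have roles in epithelial differentiation and growth. *KLF3* recruits the CtBP co-repressors, and *KLF10* and *KLF11* recruit SIN3A.

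The genes lie on 8 chromosomes. On GRCh37, *KLF15* (ENSG00000163884) occupies 126061478 to 126076251 on the minus strand of chromosome 3, with 3 exons in its canonical transcript. *KLF6* lies at 3818188 to 3827473 on chromosome 10, and *KLF2* at 16435637 to 16439496 on chromosome 19. *KLF3*, *KLF7* and *KLF11* overlap antisense genes that were also counted, and *KLF4* overlaps an annotated antisense gene that was not. The strand setting of the counting is not given in the sources used here, so reads of these genes and of their antisense partners may not be separated.

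The promoters of 3 genes are shown because KLF proteins themselves bind GC boxes and these windows differ in how many they hold. Each stretch ends at the base before the annotated gene, reads 5′ to 3′ on the gene's strand, and comes from RefSeq promoter windows placed on GRCh37 by exact match. Capitals mark the GC box GGGCGG on either strand. *KLF15* is at chr3:126076252-126076501, *KLF6* at chr10:3827474-3827651 and *KLF2* at chr19:16435387-16435636.
KLF15: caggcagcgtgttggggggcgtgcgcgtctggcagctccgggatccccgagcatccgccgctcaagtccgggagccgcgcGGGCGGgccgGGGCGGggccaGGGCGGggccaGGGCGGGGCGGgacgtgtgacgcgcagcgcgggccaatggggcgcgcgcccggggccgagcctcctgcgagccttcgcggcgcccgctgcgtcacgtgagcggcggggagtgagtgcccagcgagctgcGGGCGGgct
KLF6: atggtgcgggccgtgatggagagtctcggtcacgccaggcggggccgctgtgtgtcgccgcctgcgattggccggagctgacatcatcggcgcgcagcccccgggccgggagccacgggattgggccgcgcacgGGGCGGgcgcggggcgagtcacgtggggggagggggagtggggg
KLF2: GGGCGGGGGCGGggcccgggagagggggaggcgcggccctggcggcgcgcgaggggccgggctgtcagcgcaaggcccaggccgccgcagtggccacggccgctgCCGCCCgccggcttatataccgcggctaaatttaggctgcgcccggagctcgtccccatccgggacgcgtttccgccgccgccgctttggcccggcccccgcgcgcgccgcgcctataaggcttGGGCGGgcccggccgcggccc

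RefSeq windows were found for 8 of the 10 genes, and *KLF3* and *KLF10* were not matched. The 8 genes had 13 windows among 35116, and 250 bases before each start were searched on both strands, with overlapping matches counted. The GC box was present in 42.6% of all windows, and 4.15% held at least 5. The window of *KLF15* held 6 GC boxes, as did 1 of the 2 windows of *KLF11*. *KLF2* and *KLF4* held 4 each and *KLF6* held 2, of which 1 lies in the stretch printed. *KLF9* held none. The *KLF2* window was the only one of the 13 with a match to the MEF2 pattern, CTAAATTTAG, 120 bases before the start. A match was present in 2.8% of all windows. One *KLF11* window held the cyclic AMP element TGACGTCA, which was in 1.65% of all windows. None of the 13 windows held the AP-1 site TGANTCA, found in 6.57%, or the ATF4 composite site TGATGNAA, found in 3.14%. These matches describe the letters in the windows.

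The libraries held between 62679 and 19520189 reads on genes, with a median of 6411279. Values per library are CPM, read counts scaled to a common library total by the trimmed mean of M values (TMM) within each line. The smallest library was NCI-H196 GFP sg2, in which 1 read amounted to 14.6 CPM. Non-unique alignments made up 85.6% of HCC366 ADAR sg2 and 45.3% to 50.9% of the other 3 HCC366 libraries. In all 5 comparisons, the level of *ADAR* in either ADAR library was under that of either GFP library. Its log2 fold change of ADAR against GFP was −1.08 (SE 0.13) in A549 with vehicle, −0.60 (SE 0.13) in A549 with IFN-β, −1.29 (SE 0.11) in NCI-H1650, −0.41 (SE 0.11) in NCI-H196 and −0.84 (SE 0.31) in HCC366, where it did not pass the threshold (an adjusted p under 0.05, edgeR). RNA levels after a Cas9 cut do not measure the loss of the protein. Among squamous markers in the HCC366 GFP libraries, *KRT6A* had 0 reads in both, *KRT5* 1 and 0, and *TP63* 1 and 7. Among neuroendocrine markers in the NCI-H196 GFP libraries, *NEUROD1* and *INSM1* had 0 reads, while *CHGA* had 12 and 0 and *SYP* 13 and 0. Markers of other cells, the leukocyte gene *PTPRC* and the pericyte and fibroblast gene *PDGFRB*, summed to 0 in HCC366 GFP and to 2.69 to 3.98 unscaled CPM in HCC366 ADAR. They summed to 26.5 to 95.7 CPM in NCI-H196 GFP and 38.2 to 51.6 CPM in NCI-H196 ADAR, mostly from *PDGFRB*, which was called higher there (log2 fold change 0.62, SE 0.17). In NCI-H1650 and A549 the sum was at most 1.27 CPM in every group, and the part of these markers in the KLF results was not tested. In NCI-H196 GFP the mesenchymal genes *VIM*, *FN1*, *CDH2* and *ZEB1* summed to 5511 to 5775 unscaled CPM. The 6 epithelial genes examined summed to 79.8 to 81.1 CPM there. Whether *PDGFRB* in NCI-H196 came from the line itself or from other cells was not tested. In such bulk RNA, a smaller share of cells that express a gene cannot be told apart from less RNA per cell.

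In GFP cells without IFN-β, *KLF10*, *KLF6* and *KLF4* reached the highest levels per length of the 10 genes, and *KLF15* had the lowest. CPM per kb of exon is used here to compare genes, scaled over the 8 libraries of these 4 conditions. *KLF10* stood at 44.2 ± 3.85 (SD, n = 2) CPM per kb in NCI-H1650, 29.7 ± 0.714 in A549, 27.0 ± 16.5 in NCI-H196 and 17.1 ± 0.725 in HCC366. Of these neighbours, the libraries of NCI-H1650 lay above those of A549, while NCI-H196 overlapped A549 and HCC366. *KLF6* ranged from 14.2 ± 0.789 in A549 to 41.8 ± 10.4 in NCI-H196, and *KLF4* from 4.67 ± 0.105 in A549 to 35.4 ± 5.40 in NCI-H1650. *KLF9* had its highest level in NCI-H196, at 7.18 ± 0.582 CPM per kb, and its lowest in A549, at 0.722 ± 0.0601.

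*KLF15* was at or near 0 everywhere before *ADAR* KO. Its level was 0 in both HCC366 libraries, 0 and 0.0307 CPM per kb in A549, 0.0744 and 0.0795 in NCI-H1650, and 0 and 0.258 in NCI-H196. *KLF11* was lowest in A549, at 1.67 ± 0.441, and reached 15.3 ± 3.61 in NCI-H196. Of the 10 genes, 9 passed the filter on low counts and all 9 differed among the 4 lines by edgeR's quasi-likelihood test at an adjusted p under 0.05, where 92.1% of the 15964 genes tested did. The share is close to that of all genes. With DESeq2, 7 of them did, and *KLF3* (adjusted p = 0.228) and *KLF5* (adjusted p = 0.135) did not.

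**Figure D1:**
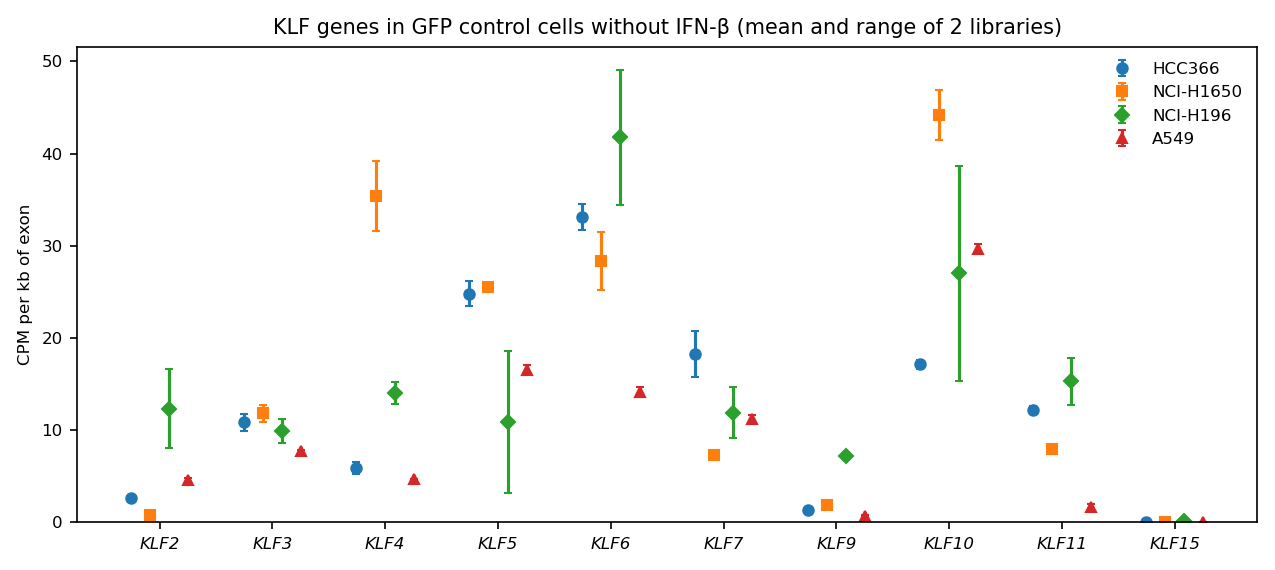
Levels of the 10 KLF genes in GFP control cells without IFN-β, as TMM-scaled CPM per kb of exon, with points for the mean and bars for the range of 2 libraries in each of the 4 lines. *KLF10* in NCI-H1650 has the highest mean, at 44.2, and *KLF15* lies at or near 0 in every line.

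After *ADAR* KO in the 3 ADAR1-dependent lines, *KLF15*, *KLF4*, *KLF10*, *KLF6* and *KLF5* had higher levels with either *ADAR* sgRNA than with either *GFP* sgRNA, in every line. Of all 10398 genes tested in each of the 3 lines, 7.68% did so. Within a line, both ADAR libraries lay above both GFP libraries for 6 of the 10 KLF genes in HCC366, where 25% of all genes tested did, for 7 in NCI-H1650, where 26.2% did, and for 7 in NCI-H196, where 25.6% did. The genes were selected on this comparison, so nothing is read from these shares. *KLF15*, a regulator of amino acid and lipid metabolism, had 0 and 0 counts in HCC366 GFP and 8 and 40 counts in HCC366 ADAR, which are 6.87 and 25.3 CPM. In NCI-H1650 it had 1 and 1 counts with GFP and 20 and 27 with ADAR, or 3.69 and 5.72 CPM. In NCI-H196 it had 7 and 0 counts with GFP and 4 and 29 with ADAR, or 4.03 and 3.61 CPM. The ADAR libraries lay above the GFP libraries on the CPM scale in all 3 lines. In NCI-H196 GFP sg2, 1 read amounts to 14.6 CPM, which is above both ADAR values of that line. Its count of 0 therefore carries little weight, and the separation in NCI-H196 rests on GFP sg1. The 2 HCC366 ADAR libraries differed more from each other than those of the other lines.

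Pooled over the libraries of a condition, *KLF15* was at least 28.4-fold higher in HCC366 ADAR. For this bound the GFP libraries were set at 3 counts over the group, which is what a count of 0 allows. Of the 48 ADAR counts, 40 came from sg2, the library with 85.6% of alignments not unique. In NCI-H1650 the ratio was 20.4 (95% counting interval 5.33 to 173), and in NCI-H196 it was 4.76 (2.07 to 12.7). The intervals cover counting error alone. The bound for HCC366 takes the ADAR counts as exact, so their counting error is left out. Reads without molecular identifiers are also not independent molecules. *KLF15* was past the threshold of an adjusted p under 0.05 in all 3 lines, but it was selected on this comparison. With so few GFP reads it also passed the filter on low counts mainly through the ADAR libraries. The calls are therefore a description and not a test. Among the fits with a library left out, *KLF15* could be tested in 3 of 4 in HCC366 and in 2 of 4 in NCI-H196. In HCC366 it was not past the threshold without GFP sg2, and in NCI-H196 it was not past it under the replicate block, with or without offsets for GC content and length, or in the fit of all 20 libraries.

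*KLF10*, which encodes a repressor of growth induced by TGF-β, lies at 103661012 to 103667953 of chromosome 8 (minus strand, GRCh37) and has 4 exons in its canonical transcript (ENSG00000155090). It was at 64.7 and 60.7 CPM in HCC366 GFP and at 132 and 123 CPM in HCC366 ADAR. In NCI-H1650 it was at 187 and 168 CPM with GFP and at 391 and 542 CPM with ADAR. In NCI-H196 it was at 157 and 72.8 CPM with GFP and at 230 and 225 CPM with ADAR. The groups did not overlap in any of the lines, and the lower GFP value of NCI-H196 rests on 5 reads. The log2 fold change was 1.03 (SE 0.33) in HCC366, which was not past the threshold, 1.39 (SE 0.11) in NCI-H1650 and 0.55 (SE 0.10) in NCI-H196. In NCI-H196 it was 1.65 and not past the threshold without GFP sg1.

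*KLF4*, a factor of epithelial differentiation and one of the reprogramming factors, had the largest log2 fold change after *KLF15* in HCC366 and NCI-H196. It was at 18.3 and 23.1 CPM in HCC366 GFP and at 92.7 and 192 CPM in HCC366 ADAR. It was at 150 and 122 CPM in NCI-H1650 GFP against 250 and 290 CPM with ADAR. In NCI-H196 it was at 59.1 and 58.2 CPM with GFP, the second value from 4 reads, and at 142 and 135 CPM with ADAR. All ADAR libraries were above all GFP libraries of the same line. The log2 fold changes were 2.77 (SE 0.45), 0.98 (SE 0.11) and 1.21 (SE 0.12).

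*KLF6* and *KLF5* moved less. *KLF6* went from 187 and 203 CPM to 285 and 337 CPM in HCC366, from 203 and 164 CPM to 329 and 382 CPM in NCI-H1650, and from 321 and 262 CPM to 466 and 480 CPM in NCI-H196. Its log2 fold change was 0.68 (SE 0.31, not past the threshold), 0.95 (SE 0.11) and 0.58 (SE 0.11). *KLF5* went from 83.0 and 92.0 CPM to 177 and 274 CPM in HCC366, from 100.1 and 97.9 CPM to 147 and 179 CPM in NCI-H1650, and from 72.8 and 14.6 CPM to 83.5 and 113 CPM in NCI-H196. Its log2 fold change was 1.37 (SE 0.35, not past the threshold) in HCC366, 0.72 (SE 0.11) in NCI-H1650 and 0.56 (SE 0.12) in NCI-H196. The lower GFP value of *KLF5* in NCI-H196 rested on 1 read, and its log2 fold change was 2.88 without GFP sg1 and 0.33 without ADAR sg2, neither past the threshold.

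The remaining 5 genes varied by line. *KLF2*, known for its role in endothelium and T cells, was at 6.85 and 7.31 CPM in HCC366 with GFP and at 10.3 and 30.4 CPM with ADAR (log2 fold change 1.54, SE 0.55, not past the threshold). It was low in NCI-H1650, at 2.19 and 2.37 CPM with GFP against 3.69 and 5.51 CPM with ADAR. In NCI-H196 its libraries overlapped, at 24.1 and 58.2 CPM with GFP and 36.2 and 41.4 CPM with ADAR, although it was called there (log2 fold change 0.72, SE 0.17). Without GFP sg1 in that line the value turned to −0.51, which left GFP sg2 with 4 reads as the control. *KLF9*, a glucocorticoid-induced gene, was called higher in NCI-H196 alone (log2 fold change 0.50, SE 0.15), with 42.0 and 43.7 CPM with GFP and 65.4 and 57.8 CPM with ADAR. The second GFP value of *KLF9* came from 3 reads. Its call there was lost under the replicate block and in the fit of all 20 libraries. In HCC366 its 6.87 and 24.1 CPM with ADAR overlapped the 5.33 and 8.16 CPM with GFP. The difference between the lines was not past the threshold for *KLF9*.

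*KLF3*, *KLF7* and *KLF11* were not called in any of the 3 lines. *KLF3*, a co-repressor-recruiting factor, was lower in both HCC366 ADAR libraries, at 48.9 and 22.8 CPM against 64.7 and 75.9 CPM, and its log2 fold change of −0.99 (SE 0.42) was not past the threshold. *KLF7* was at −0.52 (SE 0.39) in HCC366, 0.10 (SE 0.12) in NCI-H1650 and 0.22 (SE 0.11) in NCI-H196. *KLF11*, a TGF-β-inducible relative of *KLF10*, was at −0.064 (SE 0.34), 0.016 (SE 0.14) and 0.33 (SE 0.13). Its NCI-H1650 libraries lay between 38.1 and 39.4 CPM in all 4 libraries.

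**Figure D2:**
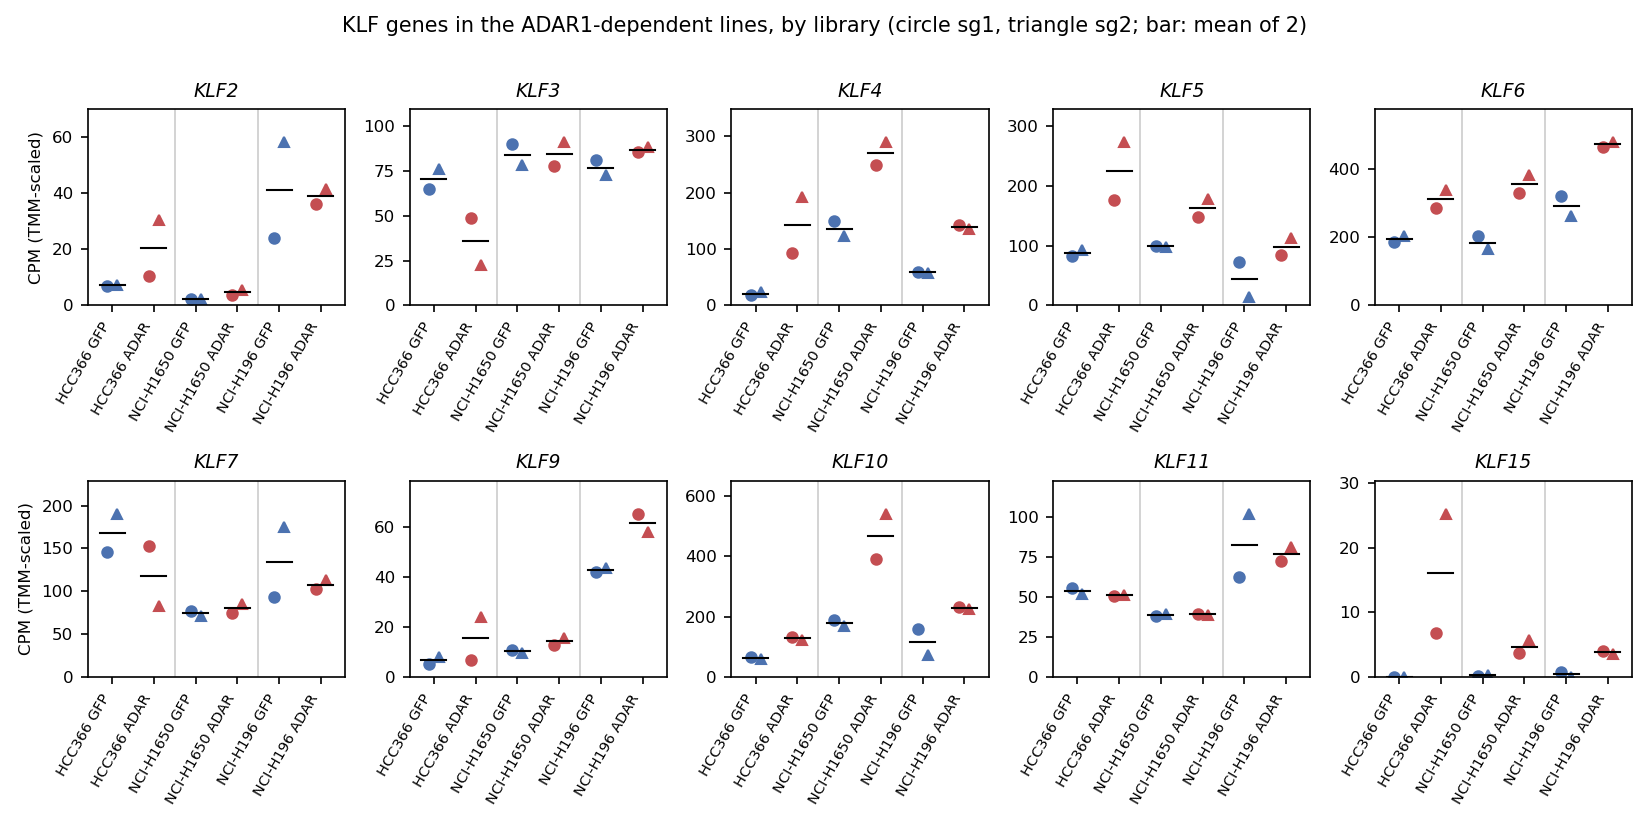
TMM-scaled CPM of each KLF gene in the 12 libraries of HCC366, NCI-H1650 and NCI-H196, with blue for GFP and red for ADAR, circles for sg1, triangles for sg2 and bars for the mean of 2. *KLF4*, *KLF5*, *KLF6*, *KLF10* and *KLF15* have both ADAR libraries above both GFP libraries in each line, and none of the remaining genes does so in every line.

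In counts, 2 of the 10 genes were called higher in HCC366 (*KLF4* and *KLF15*), where 1.2% of the 11135 genes tested were higher and 0.0449% lower. In NCI-H1650, 5 of 10 were higher (*KLF4*, *KLF5*, *KLF6*, *KLF10* and *KLF15*), where 6.18% of 14530 genes were higher and 2.42% lower. In NCI-H196, 7 of 10 were higher (*KLF2*, *KLF4*, *KLF5*, *KLF6*, *KLF9*, *KLF10* and *KLF15*), where 10.3% of 14094 genes were higher and 7.5% lower. None of the 10 was called lower in any line. Since the genes were selected on this comparison, nothing is read from these shares. Over the 10 genes, the log2 fold change had a median of 1.099 in HCC366, also with *KLF15* at its bound, 0.84 in NCI-H1650 and 0.55 in NCI-H196, beside −0.0069, 0.0066 and −0.0039 over all genes tested.

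The calls in HCC366 and NCI-H196 depended on single libraries. The count in HCC366 was 7 higher and 2 lower without ADAR sg1, 1 higher without GFP sg1 and 0 higher without GFP sg2. The count in NCI-H196 was 0 without GFP sg1 or without ADAR sg2, 3 without ADAR sg1, 0 with DESeq2 and 1 (*KLF4*) with a replicate block by sgRNA number. In NCI-H1650 the 5 genes kept their calls whichever library was omitted. There, *KLF4*, *KLF6* and *KLF10* were called under every alternative, and *KLF15* under every alternative in which it had an adjusted p, since DESeq2 gave it none.

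The effects of the 3 lines were also compared with each other and with vehicle-treated A549 in a fit of all 20 libraries. *KLF4* was the only one of the 10 genes whose KO effect differed past the threshold. Its log2 fold change was larger in HCC366 than in NCI-H1650 by 1.71 (SE 0.34) and than in NCI-H196 by 1.51 (SE 0.36), where 2.21% and 2.41% of 19523 genes differed. The mean of the 3 lines exceeded that of vehicle-treated A549 by 1.49 (SE 0.28) for *KLF4*, and 0.953% of genes differed. Between NCI-H1650 and NCI-H196, none of the 10 genes was past the threshold, *KLF10* alone had an unadjusted p under 0.05, and 0.00512% of all genes were past it. The larger effect in HCC366 than in NCI-H196 was past the threshold in 14 of the 20 fits that left out a library, and its value was 0.91 without HCC366 ADAR sg2. The larger effect in HCC366 than in NCI-H1650 was past it in 19 of 20, and the larger mean than in A549 in 17 of 20.

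In A549 with vehicle, *ADAR* KO left every KLF gene short of the threshold. Of the 10 genes, 9 passed the filter and 0 were called, where 0.123% of the 15449 genes tested were called in either direction. None of the 9 had an unadjusted p under 0.05, and DESeq2 called 0. *KLF10* was at 90.3 and 85.5 CPM with GFP and at 98.5 and 98.8 CPM with ADAR, a log2 fold change of 0.17 (SE 0.12). *KLF4* was at 13.2 and 13.3 CPM with GFP and 14.2 and 15.1 CPM with ADAR, and *KLF6* at 65.3 and 69.2 CPM and 77.7 and 73.3 CPM. Log2 fold changes of the 9 genes ran from −0.26 (SE 0.40) for *KLF9* to 0.39 (SE 0.27) for *KLF11*. *KLF15* had 0 and 1 counts with GFP and 0 and 0 with ADAR.

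With IFN-β, the same KO was accompanied by higher levels of 6 KLF genes. *KLF10* was at 103 and 90.0 CPM in GFP cells with IFN-β and at 327 and 461 CPM in ADAR cells with IFN-β, a log2 fold change of 2.03 (SE 0.12). *KLF6* was at 114 and 107 CPM with GFP and 323 and 442 CPM with ADAR, at 1.79 (SE 0.12) on the log2 scale. *KLF4* was at 10.8 and 15.7 CPM with GFP and 45.3 and 47.5 CPM with ADAR, at 1.79 (SE 0.17). For each of these 3 genes both ADAR libraries lay above both GFP libraries, as they did for 8 of the 9 KLF genes tested and for 28.2% of all genes tested, and sg2 was the higher of the 2 ADAR libraries for each of these genes.

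*KLF2*, *KLF7* and *KLF5* followed with smaller differences. *KLF2* was at 10.4 and 11.5 CPM with GFP and 26.5 and 28.8 CPM with ADAR (log2 fold change 1.34, SE 0.18). *KLF7*, a factor of neuronal and adipose development that was not called in the ADAR1-dependent lines, was at 92.8 and 77.1 CPM with GFP and 144 and 178 CPM with ADAR (0.93, SE 0.12). *KLF5* was at 55.6 and 53.3 CPM with GFP and 81.7 and 90.8 CPM with ADAR (0.67, SE 0.12). *KLF9* (0.94, SE 0.36), *KLF3* (0.31, SE 0.13) and *KLF11* (−0.47, SE 0.24) were not past the threshold. The *KLF9* values of 2.94 and 5.40 CPM with ADAR were far apart, against 1.96 and 2.48 CPM with GFP.

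*KLF15* did not pass the filter in A549. It had 3 and 16 counts in ADAR cells with IFN-β, or 0.315 and 0.831 CPM, and 0 counts in both GFP libraries with IFN-β and in both ADAR libraries with vehicle. It was thus at least 5.90-fold higher than in GFP cells with IFN-β and at least 3.98-fold higher than in ADAR cells with vehicle. The floor was 3 counts over the group, and the counts of ADAR cells with IFN-β were taken as exact. For *KLF15* this was not tested across genes. Its level there remained below the 3.61 to 25.3 CPM of the ADAR libraries of the other lines, which were scaled within each line.

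The share of the tested KLF genes called higher by KO with IFN-β was 6 of 9, where 10.8% of 15449 genes were higher and 6.19% lower. No KLF gene was called lower. The median log2 fold change of the 9 genes was 0.94, beside −0.014 over all genes. The count was 6 or 7 whichever of the 8 libraries was omitted. In the fit of all 20 libraries *KLF5* was not past the threshold.

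**Figure D3:**
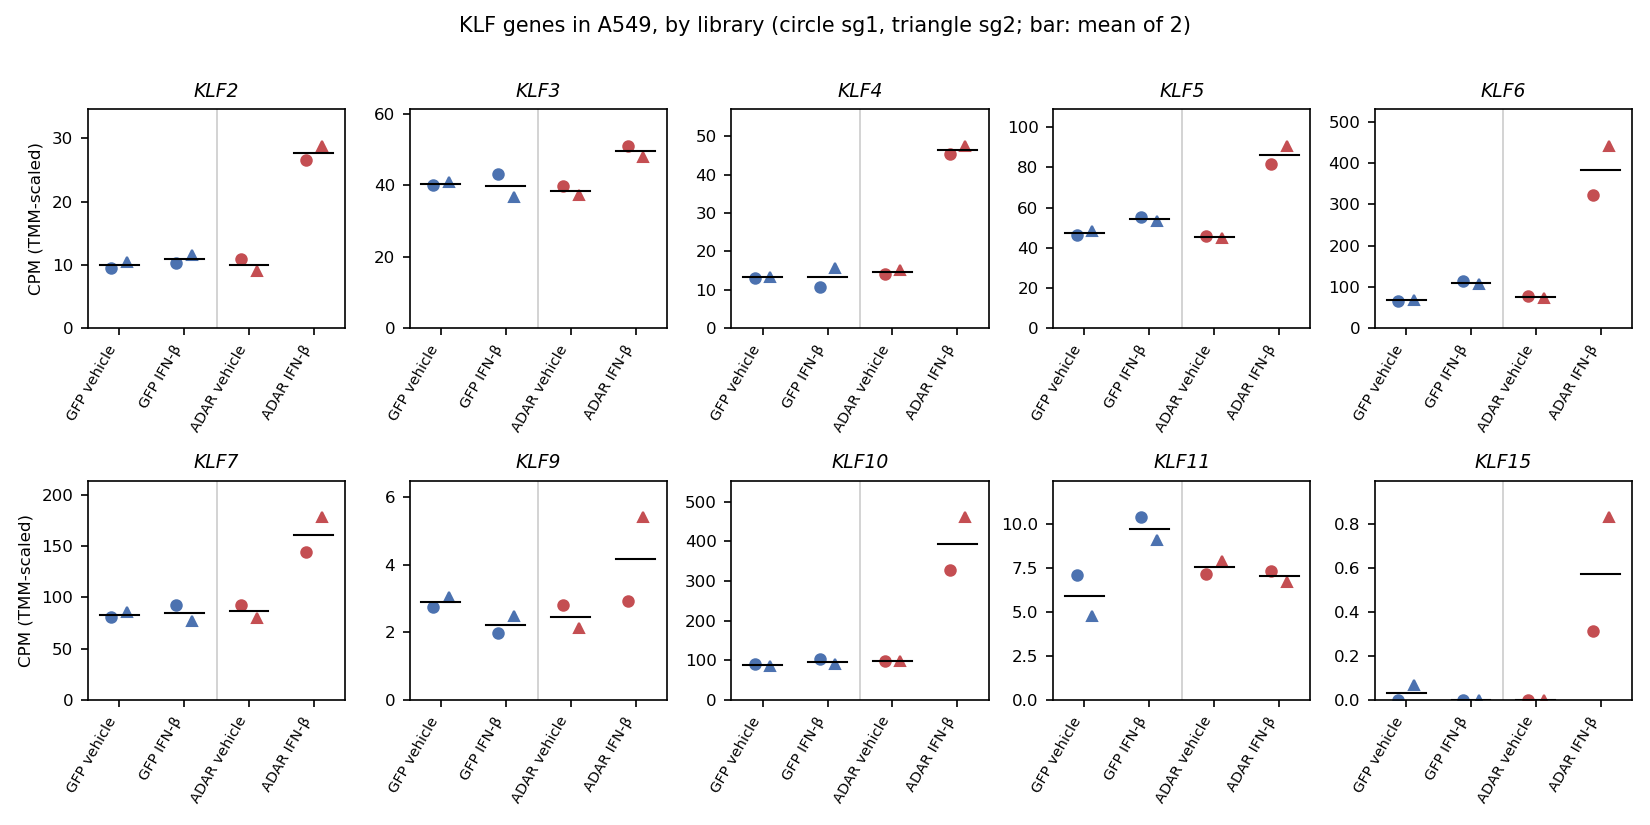
TMM-scaled CPM of each KLF gene in the 8 A549 libraries, with blue for GFP and red for ADAR, circles for sg1, triangles for sg2 and bars for the mean of 2. *KLF10* reaches 327 and 461 CPM in ADAR cells with IFN-β and lies between 85.5 and 103 CPM in the other 6 libraries.

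IFN-β alone, in GFP cells, moved 1 of the 9 tested genes past the threshold. This was *KLF6*, which went from 65.3 and 69.2 CPM with vehicle to 114 and 107 CPM with IFN-β, a log2 fold change of 0.71 (SE 0.12), and 4.39% of all genes were higher and 1.31% lower. *KLF11* had a log2 fold change of 0.75 (SE 0.25), from 7.11 and 4.77 CPM to 10.4 and 9.10 CPM, which was not past the threshold. *KLF10* was at 0.14 (SE 0.12) and *KLF4* at 0.019 (SE 0.18). In ADAR cells, 7 of 9 were called higher with IFN-β, where 15.5% of genes were higher and 9.04% lower. The largest value was that of *KLF6*, at 2.35 (SE 0.12), followed by *KLF10* at 2.00 (SE 0.12), *KLF4* at 1.66 (SE 0.17) and *KLF2* at 1.48 (SE 0.19). *KLF3* was among the 7, at 0.36 (SE 0.13), and fell short of the threshold in 6 of the 8 fits with a library left out.

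The interaction measures how far the KO effect with IFN-β exceeded that with vehicle. It was past the threshold for *KLF10* (1.86, SE 0.17), *KLF4* (1.64, SE 0.25), *KLF6* (1.63, SE 0.17), *KLF2* (1.35, SE 0.28), *KLF7* (0.88, SE 0.17) and *KLF5* (0.73, SE 0.17). All 6 were positive, where 4.07% of genes were past the threshold with a positive value and 0.977% with a negative one. *KLF9* (1.19, SE 0.54) and *KLF11* (−0.87, SE 0.36) were not past it. In the fit of all 20 libraries, *KLF2*, *KLF5* and *KLF7* were no longer past the threshold, leaving 3. The KO effects with IFN-β, the IFN-β effects in ADAR cells and the interaction share the same ADAR libraries, so they are not separate evidence.

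**Figure D4:**
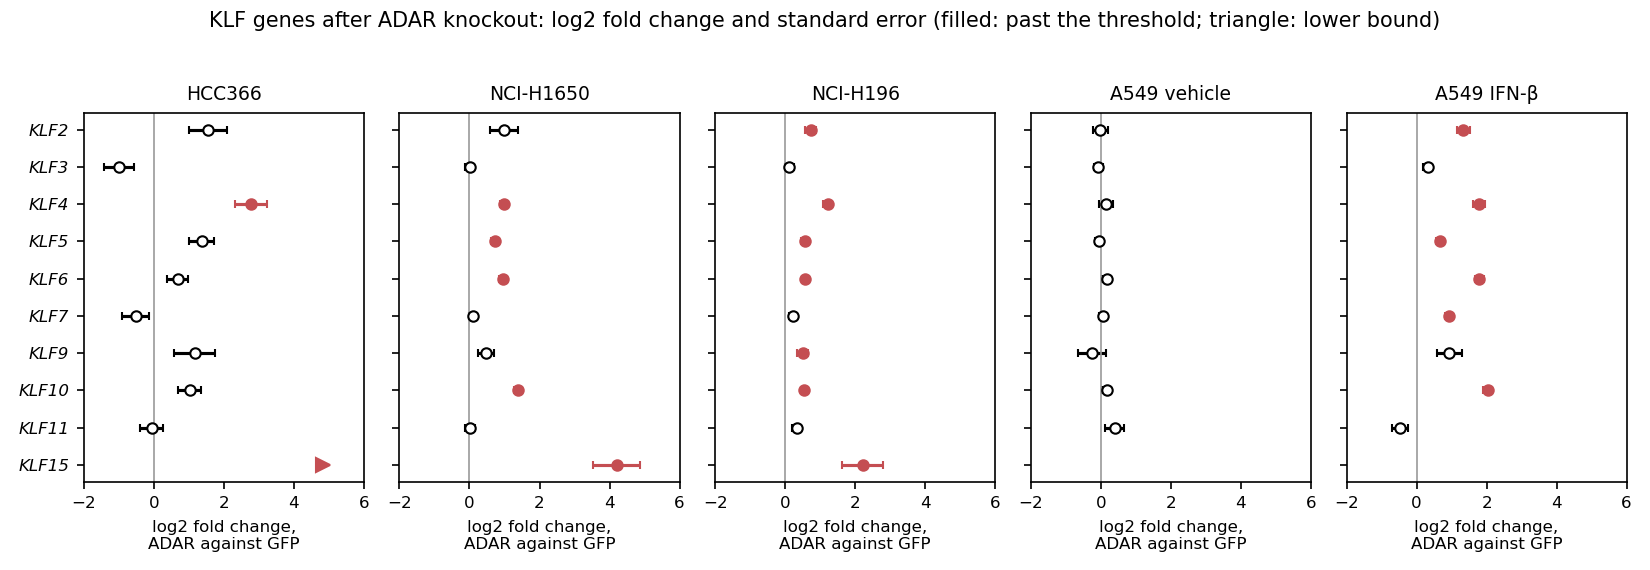
Log2 fold change of ADAR against GFP with its standard error for the 10 KLF genes in 5 comparisons, where filled points passed the threshold and the triangle is the lower bound of *KLF15* in HCC366. *KLF15* was not tested in A549, where 9 genes lie near 0 with vehicle and 6 pass the threshold with IFN-β.

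*KLF15* and *KLF10* differed from each other in where they were highest. *KLF15* went from at most 0.774 CPM in the GFP libraries of the 3 ADAR1-dependent lines to between 3.61 and 25.3 CPM, with its highest level in HCC366, and stayed under 1 CPM in A549. *KLF10* was expressed in every library, at no less than 60.7 CPM, and had its highest CPM in NCI-H1650 ADAR and in A549 ADAR with IFN-β. The CPM values were scaled within each line. The highest *KLF15* value was that of HCC366 ADAR sg2, with 85.6% of alignments not unique, and HCC366 ADAR sg1 was at 6.87 CPM. Among GFP cells without IFN-β, *KLF10* was already highest in NCI-H1650. The KO effects on either gene did not differ past the threshold between the 3 ADAR1-dependent lines.

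Genes with a pattern most like those of *KLF10* and *KLF15* were ranked by Pearson correlation of log2 CPM over the 20 libraries, centred on the untreated or vehicle GFP libraries of each line. The points share lines, sgRNAs and depth, so these are a description. For *KLF10* they were *SAT1* (r = 0.96), a polyamine acetyltransferase, *TIPARP* (0.96), *ZNF217* (0.95), *CXCL8* (0.95), which encodes interleukin-8, and *NUAK2* (0.95). *KLF6* was at 0.90 and stood in place 38 of 19281 genes. For *KLF15* they were *ATXN2L* (0.97), *AEN* (0.96), *RHOB* (0.96), *HES1* (0.96) and *DAGLB* (0.95). *KLF4* was at 0.91 and *KLF10* at 0.65. When the 12 libraries of HCC366, NCI-H1650 and NCI-H196 were used alone, the genes most like *KLF10* were *KLF6* (0.97), *DUSP6* (0.96), *MED12* (0.95), *CITED2* (0.94) and *GPR176* (0.94). None of the 5 genes named for *KLF10* over the 20 libraries was among them. In these 12 libraries those most like *KLF15* were *XBP1*, *JUN*, *GADD45A*, *IER2* and *HES1* (0.98 to 0.99). With a prior count of 0.5 in place of the main one, the 5 genes most like *KLF15* over the 20 libraries were *ATXN2L*, *AEN*, *DAGLB*, *KANSL1* and *CXCL2*, so that *RHOB* and *HES1* were not among them.

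The other 8 KLF genes were not called in any of the KO or IFN-β comparisons by edgeR. The KLF genes studied were selected on these responses, so nothing is read from the absence of calls among the rest. Of the other 8, 3 passed the filter in HCC366 (*KLF12*, *KLF13* and *KLF16*), 4 in NCI-H1650 and 3 each in NCI-H196 and A549. At an unadjusted p under 0.05 there were 1 in each of the 3 ADAR1-dependent lines, 0 in A549 with vehicle and 2 in A549 with IFN-β. The median of their log2 fold changes was −0.27 for A549 with IFN-β, −0.28 for HCC366, 0.018 for NCI-H1650 and 0.0055 for NCI-H196. Of the 9 SP factors, which share the zinc-finger type and the GC box, *SP8* (1.65, SE 0.28) and *SP6* (0.46, SE 0.11) were called higher in NCI-H1650 among 6 tested, and *SP6* was not past the threshold without either GFP library in turn. *SP2* (0.60, SE 0.15) and *SP3* (0.48, SE 0.11) were called in A549 with IFN-β among 5 tested. *SP2* was called in NCI-H196 among 5 tested (0.49, SE 0.17), where its value was −0.092 without GFP sg1. In HCC366, 0 of 4 were called by edgeR, with 2 at an unadjusted p under 0.05. Beside the counts of this list and the lists below, the share of all genes called higher was 1.2% in HCC366 and 6.18% in NCI-H1650. It was 10.3% in NCI-H196 and 10.8% in A549 with IFN-β. The shares called lower were 0.0449%, 2.42%, 7.5% and 6.19% in that order. The lists were chosen with earlier results known, so nothing is read from the counts.

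Among 14 genes whose products act with KLF proteins or degrade them, 4 were higher after KO in A549 with IFN-β and 0 lower, at a median of 0.10. They included *SMURF2* (1.09, SE 0.12), a ubiquitin ligase of the TGF-β pathway, and the acetyltransferases *EP300* (0.46, SE 0.10) and *CREBBP* (0.39, SE 0.10). The last 2 were not past the threshold without ADAR sg2 with IFN-β. In NCI-H196, 3 were higher, which were *CREBBP* (0.44, SE 0.11), *EP300* (0.45, SE 0.11) and *SMURF1* (0.43, SE 0.12), and the deacetylase gene *HDAC2* was lower (−0.52, SE 0.11). In NCI-H1650, 0 were higher and 1 lower, and in HCC366 none of the 14 was called, with 1 at an unadjusted p under 0.05. In the ERK5-MEF2 axis upstream of *KLF2* and *KLF4*, 2 of 8 tested genes were higher in A549 with IFN-β, of which *MEF2D*, a MEF2 factor, was at 0.58 (SE 0.11). In NCI-H196, 2 of 9 were higher, *MEF2D* (0.41, SE 0.11) and *HDAC5* (0.34, SE 0.12), which encodes a repressor of MEF2 factors. In NCI-H1650, *HDAC5* was higher (0.60, SE 0.14), but not past the threshold with DESeq2, without GFP sg1 or without ADAR sg2. *MAP3K2*, a kinase upstream of ERK5, was called lower there (−0.34, SE 0.11), and this call was lost with DESeq2, with no filter, under the replicate block, with offsets and in 3 of the 4 fits with a library left out. *MAPK7*, which encodes ERK5, was not past the threshold in any of the 5 KO comparisons.

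Of 16 early TGF-β target genes, the class in which *KLF10* was first described, 0 of the 15 tested were called in HCC366 (3 at an unadjusted p under 0.05), 4 were higher in NCI-H1650, 6 were higher and 1 lower in NCI-H196, and 7 were higher and 1 lower in A549 with IFN-β. In NCI-H1650 these were *BAMBI* (0.80, SE 0.13), a TGF-β pseudoreceptor, *TGIF1* (0.55, SE 0.11), *BHLHE40* (0.47, SE 0.10) and *ID3* (0.44, SE 0.11), of which *ID3* was not past the threshold with DESeq2 or without GFP sg1, and *BHLHE40* not without GFP sg2. In A549 with IFN-β the largest were *CCN2* (1.49, SE 0.15), a matricellular protein gene, *BHLHE40* (1.22, SE 0.11), *SKIL* (1.09, SE 0.12) and *JUNB* (1.01, SE 0.12). *CCN2* was called lower in NCI-H196 (−0.73, SE 0.10), and there the value was 0.048 without GFP sg1. The medians of the list were 0.0093, 0.21, 0.10 and 0.29 in the order above, beside −0.0069, 0.0066, −0.0039 and −0.014 over all genes tested.

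Of 12 glucocorticoid-induced genes, the class that holds *KLF9* and *KLF15*, HCC366 had 1 of 11 tested genes higher and NCI-H1650 had 6 of 11. NCI-H196 had 7 of 10 and A549 with IFN-β had 6 of 11, with 1 lower in each of these 2. Of all genes tested, 1.2%, 6.18%, 10.3% and 10.8% were higher in that order, and the list was chosen with earlier results known. *PER1*, a circadian repressor, was higher in all 4 comparisons, at 2.42 (SE 0.40), 1.15 (SE 0.14), 1.67 (SE 0.16) and 2.71 (SE 0.15). It was not past the threshold in HCC366 without GFP sg1 or GFP sg2. *TSC22D3*, which encodes the leucine zipper protein GILZ, was at 0.71 (SE 0.17) in NCI-H1650, 0.96 (SE 0.13) in NCI-H196 and 2.16 (SE 0.18) in A549 with IFN-β. *NFKBIA*, the inhibitor of NF-κB, was at 0.69 (SE 0.11), 1.26 (SE 0.11) and 1.23 (SE 0.11) in the same 3. *DUSP1*, a MAP kinase phosphatase, was at 0.72 (SE 0.11) in NCI-H1650 and 1.22 (SE 0.10) in A549 with IFN-β, and *CEBPD* at 0.53 (SE 0.13) in NCI-H1650 and 1.35 (SE 0.18) in NCI-H196. Without NCI-H196 GFP sg1 the value of *CEBPD* turned to −0.43 there, and *PER1*, *TSC22D3* and *NFKBIA* were not past the threshold in that line. *CEBPD* was also not past it in NCI-H196 under the replicate block, nor was *TSC22D3*, which DESeq2 did not call in NCI-H196 or NCI-H1650. *FKBP5*, another gene of this list, was lower in NCI-H196, and *MT2A*, a metallothionein gene, was lower in A549 with IFN-β. In A549 with vehicle, 0 of 11 were called and 1 had an unadjusted p under 0.05. The medians of the list were 0.52, 0.53, 0.54 and 0.55, and 0.0074 with vehicle. Over all genes tested, the first 4 of these comparisons had medians of −0.0069, 0.0066, −0.0039 and −0.014. Several of these genes are early-response genes that also answer to other stimuli.

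Some known targets of the KLF proteins did not pass the filter, and the number tested varied by comparison. Of 8 *KLF15* targets in amino acid and lipid metabolism, 3 or 4 were tested and 0 were higher in any comparison. In A549 with IFN-β, *BCAT2*, the mitochondrial branched-chain aminotransferase gene, was lower (−0.44, SE 0.11), as was *GPT*, the alanine aminotransferase gene (−1.83, SE 0.61). *BCAT2* was not past the threshold without ADAR sg2 with IFN-β. *GPT* was not past it with offsets, in the fit of all 20 libraries or in 4 of the 8 fits with a library left out, where its value ran from −3.74 to −1.25. Of 8 *KLF2* and *KLF4* targets, *S1PR1* (1.02, SE 0.18), a sphingosine phosphate receptor gene, and *THBD* (0.99, SE 0.27), which encodes thrombomodulin, were higher in NCI-H1650 among 6 tested. *THBD* was not called with DESeq2, in the fit of all 20 libraries or in 3 of the 4 fits with a library left out. In NCI-H196, *CDKN1A*, the p21 gene, was higher (0.38, SE 0.11) and the caveolin gene *CAV1* lower (−0.40, SE 0.10), and neither was called with DESeq2. In A549 with IFN-β, 0 of 3 were called and none had an unadjusted p under 0.05, and in HCC366 0 of 2 were called although both had one.

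**Figure D5:**
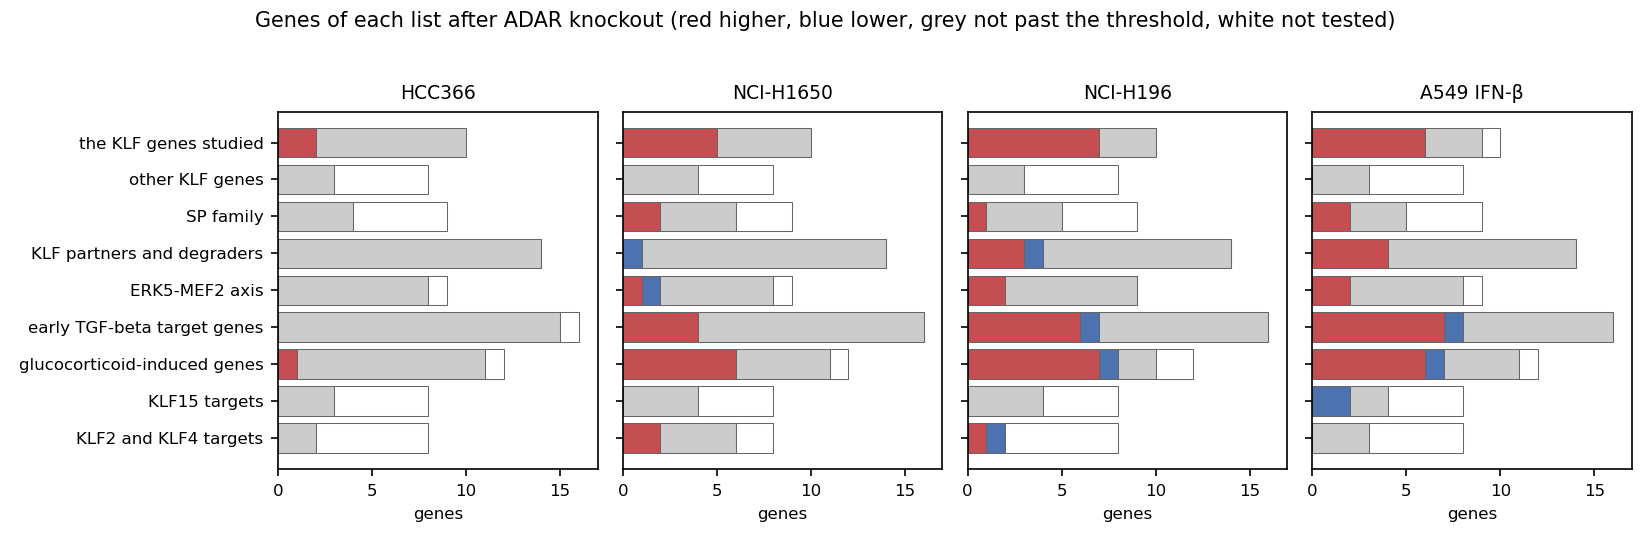
Number of genes in each list called higher (red), lower (blue), not past the threshold (grey) or not tested (white) after *ADAR* KO in 4 comparisons. Glucocorticoid-induced genes number 1, 6, 7 and 6 called higher, and *KLF15* targets number 0 in each. Of all genes tested, 1.2%, 6.18%, 10.3% and 10.8% were called higher.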

How the data were processed

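Total RNA-seq libraries (20, with ribosomal RNA depleted) were aligned by the authors to hg19 with STAR and counted per gene with HTSeq, per the labels and the study's methods. The deposited files hold raw counts, without normalization. The annotation release and strand setting are not given in the sources used here, and the summary lines were left out. Symbols matched 55727 of 58233 identifiers, which carried 97.4% of counts. Gene positions are those of the supplied GENCODE annotation of GRCh37.

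The KLF genes and all gene lists were chosen with earlier results of these data known. Samples were grouped by line, target and treatment as labelled. In R 4.3.3, edgeR 4.0.16 was used with TMM scaling, filterByExpr by condition, the quasi-likelihood F-test and Benjamini-Hochberg adjustment over all genes tested (threshold 0.05). HCC366, NCI-H1650 and NCI-H196 had a fit each, the 8 A549 libraries 1 fit, the differences between lines a fit of 20 libraries, and the control cells a fit of 8. Log2 fold changes used a prior count of 0.125, and SE is the size of the log2 fold change over the square root of F. CPM used TMM-scaled totals of reads on genes within each line. Depth ran from 62679 to 19520189 reads. Counting intervals are exact at 95% and cover counting error only. The floor is 3 counts, and bounds from it take the counts of the higher group as exact. The scripts were tested on data simulated from NCI-H1650 and A549 with a single dispersion. The depth of NCI-H196 and the spread of HCC366 were not simulated. No 2 files were identical, and libraries of a condition differed by more than sampling noise. Correlations of same-numbered libraries' deviations ran from -0.253 to -0.00477, so the numbers were not taken as pairs. This includes the A549 vehicle and IFN-β libraries that share an sgRNA. The alternatives were DESeq2 1.42.0 and its size factors, no filter, libraries left out, replicate blocks, GC and length offsets, and 1 fit of 20 libraries. The named genes were the 10 KLF genes, *ADAR*, up to 4 genes per list with the largest change past the threshold, and the 5 genes most like *KLF10* and *KLF15*. *PECAM1* was not analysed here.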

Additional observations from a re-analysis of the deposited data

Results flagged for a closer look

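The KO effect differed between IFN-β and vehicle in A549 by the interaction term for 6 KLF genes. On the log2 scale the difference was 1.86 (SE 0.17) for *KLF10*, 1.64 (SE 0.25) for *KLF4*, 1.63 (SE 0.17) for *KLF6*, 1.35 (SE 0.28) for *KLF2*, 0.88 (SE 0.17) for *KLF7* and 0.73 (SE 0.17) for *KLF5*. The KO effect on *KLF4* also differed between lines. It was larger in HCC366 than in NCI-H1650 by 1.71 (SE 0.34) and than in NCI-H196 by 1.51 (SE 0.36), and the mean of the ADAR1-dependent lines exceeded that of A549 with vehicle by 1.49 (SE 0.28). The KLF genes had been selected on these contrasts, so the values are a description. HCC366 ADAR sg2, with 85.6% of alignments not unique, had the higher of the 2 *KLF4* values of its condition, at 192 CPM against 92.7 CPM. Without that library the *KLF4* difference was 1.08 from NCI-H1650 and 0.91 from NCI-H196, and the latter was not past the threshold.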

How the results depend on the processing

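With offsets for GC content and length, the number of KLF genes called higher was 4 in HCC366 and 2 for IFN-β in GFP cells. In the fit of all 20 libraries it was 6 in HCC366 with 1 lower, 1 in NCI-H196 and 3 for the interaction, and with DESeq2 it was 0 in NCI-H196. The larger KO effect in HCC366 than in NCI-H196 was called for 2 KLF genes with no filter, and the smaller one for 1 with DESeq2 or with offsets. Against NCI-H1650, 1 was smaller with offsets. For the ADAR1-dependent lines against A549 with vehicle the count was 2 with DESeq2, 3 with its size factors and 4 with offsets.

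Same-numbered libraries did not vary together (correlations from -0.253 to -0.00477). In A549, vehicle and IFN-β libraries of a number carry the same sgRNA, at correlations of -0.0592 for GFP and -0.00477 for ADAR. The main fits did not pair them. With a block for each sgRNA, the interaction was called positive for 659 genes and negative for 165, beside 629 and 151 in the main fit. With a replicate block by number the count of KLF genes called higher was 1 in NCI-H196, and 2 for HCC366 above NCI-H196. With the block and offsets together it was 5 in HCC366, 1 in NCI-H196, 2 for IFN-β in GFP cells, 2 higher and 1 lower for HCC366 against NCI-H1650, 3 higher and 1 lower for HCC366 against NCI-H196, and 4 for the ADAR1-dependent lines against A549. Reversed log2 values under the block were -0.00015 for *KLF3* in NCI-H1650 and -0.052 for *KLF7* in NCI-H196, and with offsets added -0.015 for *KLF11* in NCI-H1650, -0.113 for *KLF7* in NCI-H196 and -0.047 for *KLF4* with IFN-β in GFP cells. In HCC366 the crossed pairing was also run.

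Other reversed values were -0.011 (DESeq2) and -0.013 (its size factors) for *KLF3* in NCI-H1650, -0.015 (offsets) for *KLF11* in NCI-H1650, -0.107 (DESeq2) for *KLF7* in NCI-H196, and -0.047 (offsets) and -0.0059 (20 libraries) for *KLF4* with IFN-β in GFP cells. The cause was not tested.

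With 1 library left out, counts of KLF genes called ran from 0 to 7 higher and 0 to 2 lower in HCC366, from 0 to 8 in NCI-H196, from 0 to 2 higher and 0 to 2 lower for HCC366 against NCI-H1650, from 0 to 4 higher and 0 to 2 lower for HCC366 against NCI-H196, from 0 to 1 for NCI-H1650 against NCI-H196, and from 0 to 6 for the ADAR1-dependent lines against A549. A lone library of a condition was then assumed to vary like the others. Log2 values that changed sign ran from -0.061 to 1.70 for *KLF9* in HCC366. In NCI-H1650 they ran from -0.13 to 0.11 for *KLF3*, from -0.0022 to 0.18 for *KLF7* and from -0.0051 to 0.018 for *KLF11*. In NCI-H196 they ran from -0.51 to 0.76 for *KLF2*, from -0.65 to 0.23 for *KLF7*, from -0.35 to 0.34 for *KLF11*, from -0.43 to 1.38 for *CEBPD*, from -0.78 to 0.048 for *CCN2* and from -0.092 to 0.51 for *SP2*. For KO in A549 with vehicle they ran from -0.15 to 0.13 for *KLF2* and from -0.049 to 0.16 for *KLF7*. The *KLF4* difference between NCI-H1650 and NCI-H196 ran from -0.49 to 0.0010. For IFN-β in GFP cells they ran from -0.14 to 0.092 for *KLF3*, from -0.30 to 0.25 for *KLF4* and from -0.11 to 0.16 for *KLF7*.

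Over all genes, the number called in either direction was 139 in HCC366 and ran from 9 to 6408, 1250 in NCI-H1650 (159 to 1544), 2513 in NCI-H196 (11 to 3041), 19 for KO in A549 with vehicle (3 to 30) and 2622 with IFN-β (689 to 3581), 880 for IFN-β in GFP cells (517 to 1314) and 3788 in ADAR cells (1774 to 4568), and 780 for the interaction (164 to 1663). It was 432 for HCC366 against NCI-H1650 (37 to 4288), 471 for HCC366 against NCI-H196 (6 to 3688), 1 for NCI-H1650 against NCI-H196 (0 to 49), 186 for the ADAR1-dependent lines against A549 (24 to 3032) and 14697 among control cells (7943 to 19183). The 62679 reads of NCI-H196 GFP sg2 limit every NCI-H196 value.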
